A study of Mus musculus with 11 samples.

Results

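Cathepsins are proteases that work mainly inside lysosomes, the acid compartments in which cells break down protein. Transcripts of 9 cathepsin genes (Ctsb, Ctsc, Ctsd, Ctsh, Ctsk, Ctsl, Ctss, Ctsw and Ctsz) and of Cst3, which encodes cystatin C, a secreted inhibitor of cysteine cathepsins, were measured here in mouse lung cells. These 10 genes were taken by their symbols from 31053 genes in the count tables, and each was found once. Whole-lung cell suspensions were profiled by droplet-based single-cell RNA sequencing, which counts unique molecular identifiers (UMIs), 1 for each captured transcript. The 11 libraries fell into 4 groups by genotype: 1 WT library labelled as wild type (+/+), 3 p21Het libraries labelled as p21 heterozygotes (+/-), 5 p21mTert libraries (+/mTert) and 2 p21mTertCD libraries (+/mTertCD). p21, encoded by Cdkn1a, is an inhibitor of the cell cycle, and mTert is the mouse telomerase reverse transcriptase; the labels do not spell out CD. The p21Het, p21mTert and p21mTertCD groups share 1 wild-type p21 allele by their genotype labels. The titles give an age of 18 months for every library, while the age labels give 19 months for p21Het_1 and 20 months for p21mTert_1. Nothing in the labels says that each library came from a separate animal, so the p-values measure the spread between libraries, which may be technical. Over all kept cells, Tert stood at 2.00 to 3.28 UMIs per 1000000 in the 5 p21mTert libraries and at 1.90 and 2.59 in the 2 p21mTertCD libraries, above the 0.544 to 0.842 of p21Het and the 1.13 of WT. Cdkn1a overlapped between the groups, at 118 to 187 UMIs per 1000000; its counts do not tell the alleles apart.

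Cysteine cathepsins are made as inactive precursors, are carried to lysosomes on mannose 6-phosphate receptors, and are activated at low pH. Cathepsins B, K, L and S cut inside protein chains and, once secreted, can degrade elastin, collagen and other matrix proteins, which is why they are studied in emphysema. Cathepsins C, H and Z remove residues from chain ends, cathepsin D is an aspartic protease, and cathepsin W is a relative known from cytotoxic lymphocytes.

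A barcode was kept if its UMIs numbered 1000 to 30000 and no more than 14% of them were mitochondrial, which left 69267 of 81983, with 36248337 to 67722156 UMIs per library. A cell was given a lineage where it held at least 3 of the 6 markers of that lineage and at least 2 more than of any other; no cathepsin and no Cst3 was a marker. In total, 57435 cells (82.9%) were placed in 34 lineages, of which 25 had at least 20 cells in at least 6 libraries and were ranked. Of the placed cells, 12830 (22.3%) sat exactly at one of these limits. WT_1, p21Het_1 and p21mTert_1, whose titles carry no replicate suffix, had median mitochondrial shares of 6.30% to 6.58%, against 2.82% to 4.28% in the other 8 libraries. Pairs of libraries shared 9 to 83 barcodes, and the most were shared by p21mTert_3 and p21mTert_5 (1.46% of the smaller library). Of the 13 barcodes that were kept in both of these, 10 were given a lineage in both and 1 the same lineage. Levels are given as CPM, the UMIs of a gene per 1000000 UMIs of a lineage in a library, as mean ± SD over libraries; they are compared between lineages for 1 gene, not between genes. Erythroid cells are given as a low reference: over 9 libraries their mean levels ran from 0.701 CPM for Ctsw to 108 CPM for Ctsb. How much of this was free RNA and how much their own was not tested.

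All members were located on GRCm38 with GENCODE M21. Ctsk (chr3:95499256-95509362) and Ctss (chr3:95526786-95556403) lie next to each other on the plus strand, 17423 bases apart, with no annotated gene between them. Ctsb lies at chr14:63122462-63145923, Ctsc at chr7:88278085-88310888 and Ctsd at chr7:142375911-142388038. Ctsh lies at chr9:90054152-90076089, Ctsl at chr13:64359337-64370890 and Ctsw at chr19:5465043-5468507. On chromosome 2, Ctsz lies at chr2:174427493-174439039 and Cst3 at chr2:148871722-148875692. The exons of Ctsb overlap those of Fdft1 on the other strand by 774 bases. Those of Ctsd overlap those of Gm49369 on the same strand by 808 bases, and those of Ctsl overlap the antisense gene Gm47123 by 1742 bases and the same-strand processed pseudogene Gm49230 by 395 bases. The sources used here do not state whether counting used strand, so counts of these members may include or lose reads of the overlapping gene.

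The promoters of 4 members are shown because the neighbours Ctsk and Ctss had different lineage patterns and because 3 of them hold a searched motif. RefSeq promoter sequences (250 bases before to 50 after a start, GRCm38.p6) were matched for 7 of the 10 members. The motif of PU.1, the myeloid and B-cell factor, was searched as GAGGAAGT on both strands and was present in 3.20% of all 32851 promoters. It was found in Ctss, beginning 2 bases before the start, and in Ctsc, beginning 151 bases before the start, both times as its reverse complement ACTTCCTC. The E-box CACGTG, which forms the core of the lysosomal CLEAR element, was in 7.15% of all promoters, and was found in Ctsd, beginning 245 and 98 bases before the start, and in Ctsl, beginning 236 bases before it. The full CLEAR palindrome, which contains the E-box, was in none of the 7 and in 0.326% of all promoters. The starts are those of RefSeq, and for Ctsd and Ctsl they lie inside the GENCODE gene spans given above, so that most of the Ctsd stretch and all of the Ctsl window are within the annotated gene. The stretch before the RefSeq start is printed 5′ to 3′ with the motif in capitals; the Ctss stretch runs on to the end of its motif, and Ctsk holds none of these letter strings in its window.
Ctss, GRCm38.p6 chr3:95526536-95526791, plus strand: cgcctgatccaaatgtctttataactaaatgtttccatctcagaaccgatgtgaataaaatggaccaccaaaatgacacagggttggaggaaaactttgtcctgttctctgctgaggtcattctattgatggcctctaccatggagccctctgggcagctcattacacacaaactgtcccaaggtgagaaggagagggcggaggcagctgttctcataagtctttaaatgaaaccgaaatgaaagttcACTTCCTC
Ctsk, GRCm38.p6 chr3:95498960-95499209, plus strand: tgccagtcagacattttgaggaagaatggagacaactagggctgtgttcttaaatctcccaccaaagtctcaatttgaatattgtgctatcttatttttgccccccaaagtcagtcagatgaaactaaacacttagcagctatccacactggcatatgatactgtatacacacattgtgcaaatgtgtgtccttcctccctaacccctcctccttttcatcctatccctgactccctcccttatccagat
Ctsc, GRCm38.p6 chr7:88277835-88278084, plus strand: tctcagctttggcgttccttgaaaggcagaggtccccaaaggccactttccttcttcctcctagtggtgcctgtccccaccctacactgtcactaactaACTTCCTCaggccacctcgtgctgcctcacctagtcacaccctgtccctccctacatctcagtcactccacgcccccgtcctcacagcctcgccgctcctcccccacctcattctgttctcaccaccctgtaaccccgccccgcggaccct
Ctsd, GRCm38.p6 chr7:142387828-142388077, minus strand: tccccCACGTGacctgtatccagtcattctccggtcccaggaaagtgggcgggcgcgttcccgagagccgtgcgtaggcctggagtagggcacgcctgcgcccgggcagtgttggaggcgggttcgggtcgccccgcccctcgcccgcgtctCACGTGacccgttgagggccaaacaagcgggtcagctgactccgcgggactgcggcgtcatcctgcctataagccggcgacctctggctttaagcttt

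Each gene had its own lineage profile. Macrophages or monocytes ranked first for Ctsb, Ctsc, Ctsd, Ctsh, Ctsk, Ctss and Ctsz, alveolar fibroblasts for Ctsl, natural killer cells for Ctsw and type 1 dendritic cells for Cst3. Neighbours in the order were compared within libraries by an exact permutation test (2-sided sign flips of the difference in log2(CPM + 1), Benjamini-Hochberg adjusted over 228 pairs of neighbours). Of these 228 pairs, 32 were apart at an adjusted p under 0.05: 6 for Cst3, 5 for Ctsz, 3 each for Ctsb, Ctsd, Ctsh, Ctsl and Ctsw, and 2 each for Ctsc, Ctsk and Ctss. The other pairs did not pass, which does not show that they were level. A pair with 7 shared libraries cannot go below an unadjusted p of 0.0156, so pairs with 8 or fewer shared libraries could not pass here after adjustment, even where 1 lineage was higher in every library.

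**Figure D1:**
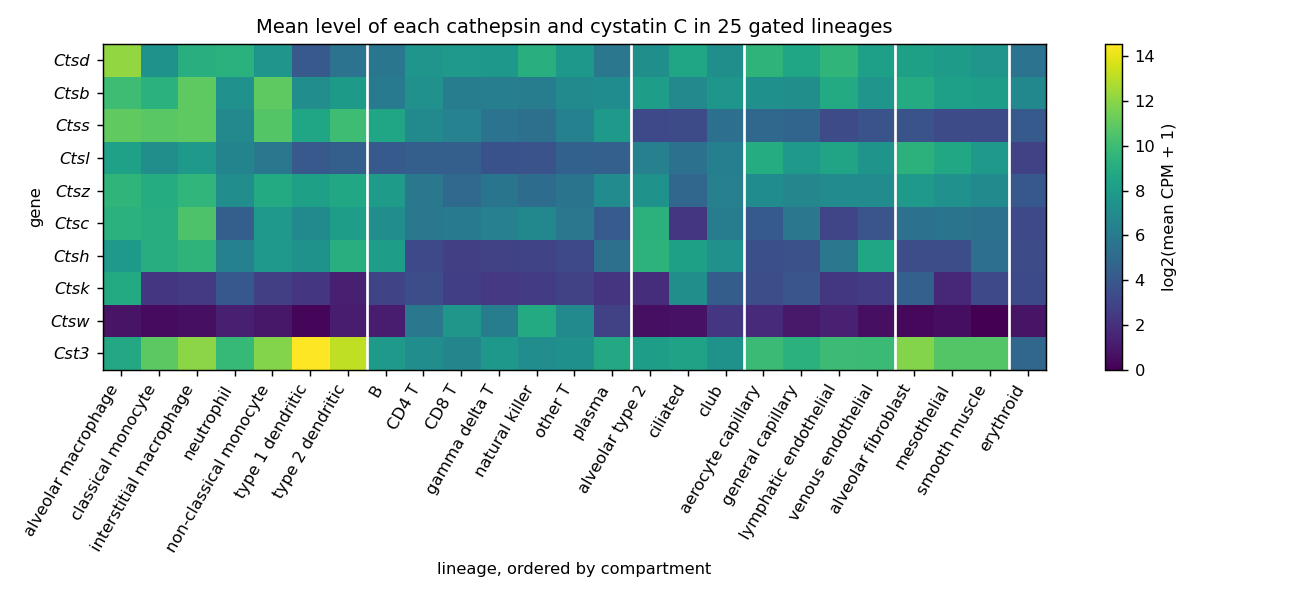
Heat map of log2(mean CPM + 1) for each of the 10 genes (rows) in the 25 ranked lineages (columns, ordered by compartment and divided by white lines), averaged over the libraries with at least 20 cells of the lineage. Ctsd stands out in alveolar macrophages (4676 CPM), Cst3 in type 1 dendritic cells (23969.6 CPM) and Ctsw in natural killer cells (475 CPM).

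Ctsd, the aspartic cathepsin, had its highest level among the ranked lineages in alveolar macrophages, the phagocytes of the airspaces. Their level was 4676 ± 591 CPM (n = 11 libraries), from 3839 in p21mTert_2 to 5578 in p21Het_2. Lymphatic endothelial cells came next at 747 ± 121 CPM (n = 8), lower in all 8 shared libraries (exact permutation test, adjusted p = 0.0524, the smallest that 8 libraries could give here). Aerocyte capillary cells (707 ± 129 CPM, n = 10), neutrophils (621 ± 94.0, n = 11) and natural killer cells (588 ± 49.9, n = 11) followed, with no neighbours apart in the test. Type 1 dendritic cells were lowest at 15.9 CPM (3.15 to 35.3, n = 11), below the erythroid level of 45.2 ± 38.8 CPM in 9 of 9 shared libraries (exact permutation test, adjusted p = 0.0297). Both capillary types held Ctsd, and aerocytes, the Car4-positive cells of gas exchange, had 1.77-fold the level of general capillary cells. Among lymphocytes, natural killer cells had 2.70-fold the level of CD8 T cells (222 ± 63.0 CPM, n = 11). These are among 10 pairs of lineages chosen after their values were seen and so described without a test. The difference had the same sign in every shared library, 10 of 10 for the capillary pair and 11 of 11 for the lymphocyte pair. Folds of such pairs are on the scale of log2(CPM + 1).

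Ctsb, a cysteine endopeptidase that also trims chain ends, was highest among the ranked lineages in non-classical monocytes, the patrolling monocytes of vessels. Their level of 1988 ± 189 CPM (n = 11) was not apart in the test from that of interstitial macrophages, 1956 ± 337 CPM (n = 11). Alveolar macrophages at 1041.5 ± 173 CPM were lower than interstitial macrophages in 11 of 11 libraries (exact permutation test, adjusted p = 0.0139). Classical monocytes, the precursors recruited from blood, were lower again at 631 ± 85.8 CPM, and non-classical monocytes had 3.16-fold their level (11 of 11 libraries). B cells were lowest at 62.1 CPM, under the erythroid level of 108 CPM. Plasmacytoid dendritic cells reached 20 cells in only 3 libraries, where Ctsb stood at 1530 ± 236 CPM (1272 to 1736).

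Ctss, the endopeptidase that processes the invariant chain Cd74 in antigen-presenting cells, was spread over the mononuclear phagocytes. Alveolar macrophages (2014 ± 237 CPM) and interstitial macrophages (1946 ± 398 CPM) were not apart in the test, and classical monocytes followed at 1794 ± 219 CPM (n = 11 each). Non-classical monocytes at 1582 ± 197 CPM were below classical monocytes in 11 of 11 libraries (exact permutation test, adjusted p = 0.0139), a difference of 0.18 on the log2 scale. Type 2 dendritic cells held 1051 ± 64.5 CPM (n = 7), while type 1 dendritic cells (381 ± 48.9 CPM, n = 11) stood level with B cells (382 ± 23.0 CPM, n = 11). Alveolar type 2 cells were lowest, at 8.13 CPM.

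Among the ranked lineages Ctsl, an endopeptidase of lysosomes and matrix, was highest outside the immune cells. Alveolar fibroblasts held 659 ± 94.7 CPM (n = 11) and were above aerocytes (519 ± 101 CPM, n = 10) in 9 of 10 libraries (exact permutation test, adjusted p = 0.0297). Mesothelial cells (401 ± 51.7 CPM, n = 6) and lymphatic endothelial cells (365 ± 57.2 CPM, n = 8) came before alveolar macrophages (321 ± 58.6 CPM, n = 11). Aerocytes had 2.33-fold the level of general capillary cells, in 10 of 10 libraries. Adventitial fibroblasts held 1139 ± 176 CPM and lipid-associated macrophages 811 ± 105 CPM, each counted in 5 libraries. Plasmacytoid dendritic cells, counted in 3, held 1239.9 ± 159 CPM. These unranked lineages, immune cells among them, all stood above alveolar fibroblasts. Ctsl and Ctsb therefore both stood high in the few plasmacytoid dendritic cells, which also held 896 ± 46.0 CPM of Ctsh (n = 3).

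Ctsk, the collagen- and elastin-degrading cathepsin best known from osteoclasts, was highest in 2 of the ranked lineages. Alveolar macrophages held 469 ± 208 CPM (n = 11), ranging from 233 in p21mTert_2 to 971 in p21Het_2. Ciliated airway cells held 147 ± 15.5 CPM (n = 11), between 123 and 171 in every library. Alveolar fibroblasts came next in the order and held 20.7 ± 15.9 CPM. Adventitial fibroblasts, counted in 5 libraries and not ranked, held 93.1 ± 29.4 CPM (49.8 to 118). Both steps in this order were seen in 11 of 11 libraries (exact permutation test, adjusted p = 0.0139 each). The SD of ciliated cells was a small part of their mean, whereas the lineages ranked below them had SDs close to or above their means. After each cell was thinned to 1000 UMIs, 31.1% ± 8.17 of alveolar macrophages and 11.7% ± 2.91 of ciliated cells had a Ctsk UMI (n = 11 libraries each), against 1.34% ± 1.66 of erythroid cells (n = 9) and 0.736% ± 0.729 of B cells (n = 11). Without thinning these shares were 89.9%, 70.8%, 2.64% and 2.68%, at median depths of 18579, 13912, 3618 and 4109 UMIs. Cells without a lineage carried 46.4% ± 6.17 of all Ctsk UMIs (n = 11), more than the 41.3% ± 6.98 in gated myeloid cells.

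Lipid-associated macrophages, which carry Gpnmb, Spp1 and Trem2, had too few cells to be ranked, and a cell with many markers both of this list and of the alveolar list had no clear lead and was left without a lineage. In the 5 libraries with at least 20 lipid-associated macrophages, Ctsd stood at 8470 ± 765 CPM, Ctsb at 2354 ± 291 CPM and Ctss at 2840 ± 473 CPM. Ctsz stood there at 1526 ± 123 CPM and Ctsk at 2078 ± 333 CPM. Each of these means was above that of the first-ranked lineage of the gene. At the limit of the gate sat 60.8% of these cells and 52.6% of alveolar macrophages. With the looser gate, a lead of 1 marker, lipid-associated macrophages were ranked and came first for Ctsb, Ctsd, Ctsk, Ctss and Ctsz. Both lists were therefore also joined as 1 lineage, a choice made after the data were seen. In these joined macrophages Ctsd, Ctsk, Ctsb, Ctsl, Ctss and Ctsz were higher the more of the 6 lipid-associated markers a cell held, and Ctsh was lower. With 2 such markers Ctsk stood at 315 ± 31.8 CPM (n = 8 libraries), with 4 at 1035 ± 520 CPM (n = 10), and with 5 at 1865 ± 270 CPM (n = 5). Ctsd went from 3935 ± 478 CPM over 5150.3 ± 814 CPM with 3 markers (n = 11) to 8667 ± 492 CPM over the same classes, Ctsb from 920.4 ± 122 to 2095 ± 305 CPM and Ctsl from 296 ± 58.6 to 777 ± 78.6 CPM. Ctsh stood at 232 ± 26.5 CPM with 2 markers and 188 ± 33.3 CPM with 5, while Ctsc was level, at 635 ± 165 and 617 ± 44.9 CPM. These are descriptions without a test, since not every library reaches each class and the classes therefore compare different sets of libraries. In p21Het_2 and p21mTertCD_1, 97.3% and 96.0% of joined macrophages held at least 3 such markers, so neither reached 20 cells with 2 markers. Median depth differed little between classes, at 18787, 20793.5 and 19188 UMIs for 2, 4 and 5 markers.

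**Figure D2:**
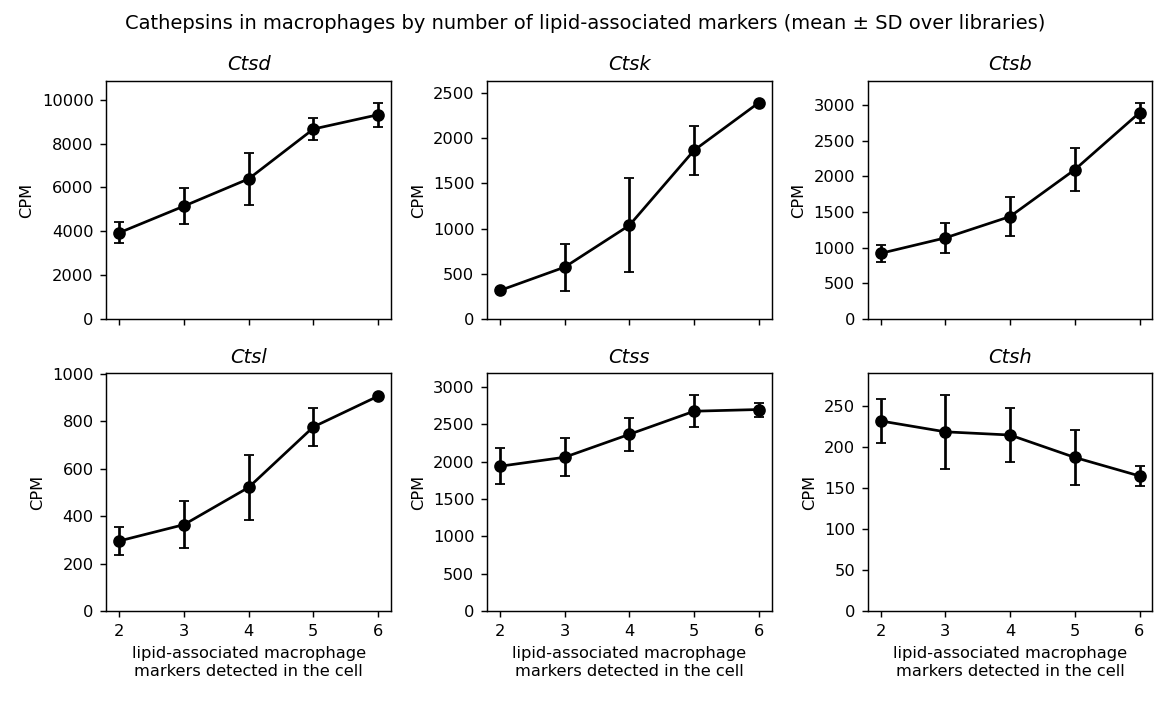
CPM of 6 cathepsins in joined alveolar and lipid-associated macrophages, by the number of lipid-associated markers detected in the cell; points are means over libraries with at least 20 such cells and bars are SDs (n = 8, 11, 10, 5 and 2 libraries for 2 to 6 markers). Ctsk climbs from 315 to 2391 CPM and Ctsd from 3935 to 9320 CPM, while Ctsh declines from 232 to 165 CPM.

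Macrophages of this kind were unevenly spread over libraries within each genotype. The main gate, with its lead of 2 markers, placed 281 lipid-associated macrophages in p21Het_2 and 252 in p21mTertCD_1. It placed 24 to 48 in p21Het_1, p21mTert_1 and p21mTert_3, and 17 or fewer in each of the other 6 libraries. The joined macrophages made up 5.74% of kept cells in p21Het_2 and 6.88% in p21mTertCD_1, and 1.54% to 3.18% elsewhere. The same 2 libraries had the highest Ctsk over all kept cells, 307 and 448 CPM, against 28.8 to 140 CPM in the other 9. In CD8 T cells and neutrophils, which hold little Ctsk, the level moved with that of the whole library, and in B cells it did so by rank. Other lymphocytes were not examined for this. Over 11 libraries, Spearman's rho with the Ctsk level of all kept cells was 0.945 in CD8 T cells, 0.927 in neutrophils, 0.809 in B cells and -0.07 in ciliated cells (permutation tests of 4 relations, adjusted p = 2.40e-04, 4.80e-04, 0.00469 and 0.834). Pearson's r was 0.968, 0.826, 0.601 and -0.28, with permutation adjusted p = 8.00e-04, 0.0589, 0.177 and 0.406. Without p21Het_2 and p21mTertCD_1, the libraries farthest from the median, r was 0.863, 0.764, 0.360 and 0.328; among the 8 libraries with a replicate suffix it was 0.973, 0.929, 0.589 and -0.30, and the other 3 libraries are too few for a value. Spearman's rho in B cells was 0.733 without those 2 libraries, so its rank relation moved less than Pearson's r. No relation passed the test in ciliated cells. Each lineage also contributes to the total it is compared with.

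**Figure D3:**
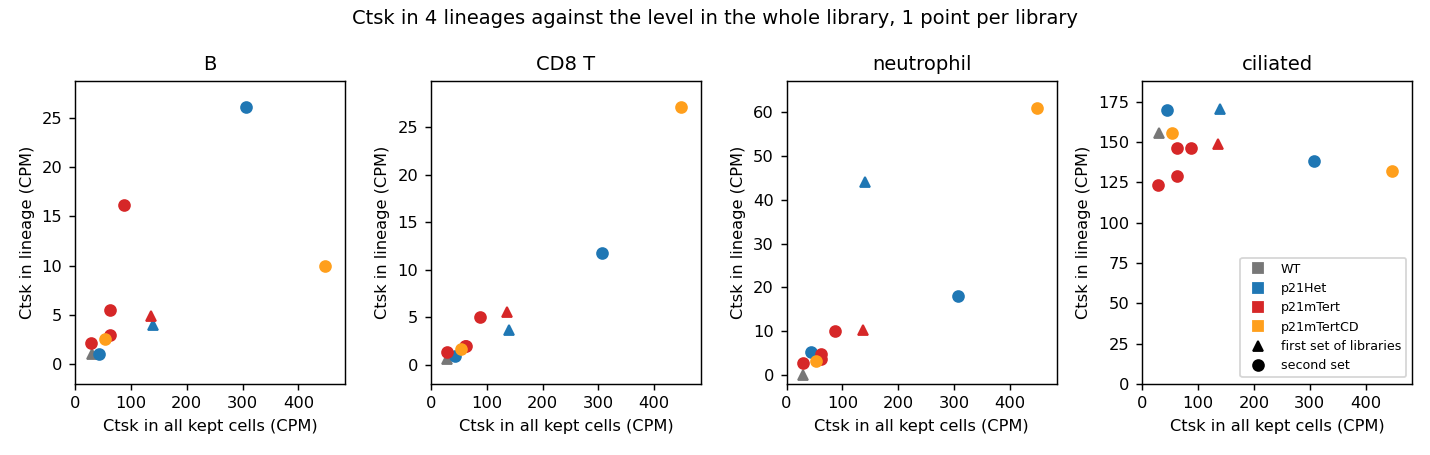
Ctsk CPM in 4 lineages (vertical axes) against Ctsk CPM in all kept cells of the same library (horizontal axes), 1 point per library, coloured by group, with triangles for the 3 libraries without a replicate suffix. CD8 T cells and neutrophils lie higher in libraries with more Ctsk, up to 27.2 and 61.0 CPM, while ciliated cells stay between 123 and 171 CPM.

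Ctsc activates the serine proteases of neutrophils, mast cells and killer cells, and was highest in interstitial macrophages, the C1q-positive cells of the tissue. They held 1410.4 ± 192 CPM and alveolar type 2 cells, the surfactant-making epithelium, 652 ± 66.8 CPM (n = 11 each; higher in macrophages in 11 of 11 libraries, exact permutation test, adjusted p = 0.0139). Alveolar macrophages (636 ± 131 CPM) and classical monocytes (544 ± 122 CPM) followed. Type 2 dendritic cells came next at 282 ± 61.1 CPM, lower than classical monocytes in 7 of 7 libraries (exact permutation test, adjusted p = 0.0727, the smallest that 7 libraries could give here). Within the epithelium, ciliated cells held 3.97 ± 1.76 CPM, the lowest of the 25 lineages and below the erythroid level of 8.24 ± 7.14 CPM (n = 9). Alveolar type 2 cells were 139-fold above ciliated cells, in 11 of 11 libraries.

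Ctsh encodes an aminopeptidase that takes part in the maturation of surfactant protein B. Its highest ranked lineages were interstitial macrophages (704 ± 97.6 CPM) and alveolar type 2 cells (680.4 ± 85.2 CPM), which were not apart in the test (n = 11 each). Plasmacytoid dendritic cells, which were not ranked, stood above both at 896 ± 46.0 CPM (843 to 927, n = 3). Alveolar type 2 cells had 4.29-fold the level of club cells, in 10 of 10 libraries. Type 2 dendritic cells held 586 ± 75.9 CPM (n = 7). Among the ranked endothelial lineages Ctsh was highest in venous cells, at 386 ± 155 CPM (224 to 611, n = 10), while general capillary cells held 11.2 ± 5.69 CPM in the same libraries, a level close to the erythroid 9.35 ± 5.28 CPM (n = 9). Lymphatic endothelial cells held 54.6 ± 12.1 CPM (n = 8). Arterial cells, 59 in all, reached 20 cells in no library; summed over all libraries they held 364.9 CPM, against 365.1 CPM in the 427 venous cells summed the same way. Venous cells were 32.9-fold above general capillary cells, in 10 of 10 libraries; 67.4% of the venous cells sat at the limit of the gate. Alveolar type 1 cells, counted in 5 libraries, held 471 ± 131 CPM.

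Ctsz, a carboxypeptidase, was at similar levels in interstitial (766 ± 92.4 CPM) and alveolar macrophages (744 ± 103 CPM), above classical monocytes (520.4 ± 38.5 CPM) in 11 of 11 libraries (n = 11 each; exact permutation test, adjusted p = 0.0139). Non-classical monocytes (469.6 ± 48.4 CPM), type 2 dendritic cells (428 ± 65.6 CPM, n = 7), type 1 dendritic cells (304 ± 16.7 CPM), B cells (261 ± 16.8 CPM) and alveolar fibroblasts (227 ± 39.4 CPM) followed, and ciliated cells at 26.8 CPM stood just above erythroid cells at 15.3 CPM. Of the dendritic cells that were not ranked, mature ones held 722 and 773 CPM in 2 libraries. Plasmacytoid ones held 641 ± 36.5 CPM (n = 3).

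Ctsw was a lymphocyte gene in these libraries. Natural killer cells held 475 ± 62.2 CPM (400.2 to 602), CD8 T cells 211 ± 32.6 CPM, the other T cells, in which Cd4, Cd8 and Trdc UMIs did not give a class, 125 ± 29.8 CPM (n = 11 each) and gamma delta T cells 70.7 ± 30.7 CPM (n = 10). Each of these 3 steps was seen in every shared library (exact permutation test, adjusted p = 0.0139, 0.0139 and 0.0186). CD4 T cells held 56.2 ± 36.8 CPM (n = 11) and every ranked lineage outside T and natural killer cells 6.26 CPM or less. After thinning to 1000 UMIs, 35.6% ± 4.76 of natural killer cells and 18.0% ± 2.58 of CD8 T cells had a Ctsw UMI (n = 11 libraries each), against 0.0486% ± 0.101 of erythroid cells (n = 9). Without thinning the shares were 86.4%, 69.6% and 0.188%, at median depths of 4777, 7802 and 3618 UMIs. Gated lymphoid cells carried 85.6% ± 3.76 of all Ctsw UMIs (n = 11).

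Cst3, the secreted inhibitor, was highest in conventional dendritic cells. Type 1 dendritic cells, marked by Xcr1 and Clec9a, held 23969.6 ± 2248 CPM (21605 to 29409, n = 11), and type 2 dendritic cells 9238 ± 1763 CPM (n = 7), lower in 7 of 7 libraries (exact permutation test, adjusted p = 0.0727, the smallest that 7 libraries could give here). Mature dendritic cells held 12192 and 13698 CPM in the 2 libraries with 20 such cells. Interstitial macrophages (4179 ± 839 CPM, n = 11) were 9.49-fold above alveolar macrophages (438 ± 85.5 CPM), and alveolar fibroblasts (3756 ± 389 CPM, n = 11) stood between interstitial macrophages and non-classical monocytes (3646 ± 703 CPM, n = 11), not apart from either in the test. Adventitial fibroblasts, counted in 5 libraries and not ranked, held 5082 ± 1784 CPM (3426 to 7670). Type 1 dendritic cells were 12.5-fold above classical monocytes, in 11 of 11 libraries. They made up 475 of the kept cells and carried 23.4% ± 5.17 of all Cst3 UMIs (n = 11). The highest Cst3 level and the lowest Ctsd level were thus measured in the same lineage.

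Genes of the same pathway were examined from lists fixed by function. Among the 24 lysosomal hydrolases and membrane proteins, 15 were highest in alveolar or interstitial macrophages, as were 7 of 10 genes that process or carry cathepsins. This held for 1 of 4 other cathepsins, 1 of 13 other inhibitors and 0 of 10 substrates and products, and for 8.56% of all 13650 genes that reached 10 CPM in a ranked lineage. Lgmn, the asparaginyl protease that processes cathepsins, was highest in interstitial macrophages (808 CPM), and Grn and Psap, the progranulin and prosaposin genes, in alveolar macrophages (740 and 3665 CPM). Of the 4 transcription factors of the lysosomal programme, Tfec and Mitf were highest in alveolar macrophages (137 and 68.5 CPM), Tfe3 in interstitial macrophages (86.4 CPM) and Tfeb in non-classical monocytes (57.6 CPM). Among other inhibitors, Cst7, the cystatin F gene of killer cells, was highest in natural killer cells (186 CPM), as Ctsw was, and Stfa2l1, a stefin, in neutrophils (1399 CPM). Of 14 other cathepsin genes 4 reached 10 CPM in any ranked lineage: Ctsa in interstitial macrophages (448 CPM), Ctso and Ctsf in mesothelial cells (97.9 and 61.0 CPM) and Ctse in erythroid cells (28.8 CPM).

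The genes most like each member across the 25 lineages were named by the 3 highest Pearson correlations of log2(mean CPM + 1) among 13650 genes, as a description, since lineages share libraries and free RNA. Ctsw was matched by Eomes (r = 0.975), Cd160 (0.974) and Klrc1 (0.973), all genes of killer cells; Eomes is itself a marker of the natural killer gate. Ctss was matched by Pld4 (0.901), Btk (0.890) and Themis2 (0.886), and Ctsb by Fam20c (0.848), Lgmn (0.836) and Pla2g15 (0.827). For Ctsz these were 5031439G07Rik (0.904), Grn (0.891) and Asah1 (0.872), and for Ctsd Pnpla8 (0.803), Ap5s1 (0.792) and Klhl9 (0.774). Ctsk was matched by Slc9a2 (0.892) and Mak (0.879), highest in ciliated cells, and by Kcnip4 (0.876), highest in alveolar macrophages. Ctsl was matched by Agap1 (0.907), Rusc2 (0.905) and Gab1 (0.895), Ctsh by Tifa (0.817), Sowahc (0.782) and Eps8 (0.776), and Cst3 by Cyp27a1 (0.855), Tcp11l1 (0.841) and Myadm (0.828). Ctsc was matched by Gm44751 (0.908), Wdr81 (0.847) and Gm26522 (0.844). Gm26522 is a long non-coding RNA whose gene overlaps Ctsc on the other strand for 4743 bases, with 0 exonic bases shared. Whether reads of the 2 were mixed was not tested.

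Between genotypes, few differences in the members passed the test within lineages. UMIs were summed per library and lineage and tested by quasi-likelihood in edgeR for the 10 libraries of the replicated groups, and p-values were Benjamini-Hochberg adjusted over all genes of a fit. The WT library had no replicate and entered none of the tests between genotypes. Its values are given beside some of the others. Between p21mTert and p21Het, 0 of 212 member tests in 25 lineages were called by edgeR (0 by DESeq2, 23 with an unadjusted p under 0.05), where 0.0378% of all gene tests were called. At an unadjusted p under 0.05 these were 10.8% of member tests and 5.31% of all gene tests. Between p21mTertCD and p21Het, 0 of 172 tests in 20 lineages were called (1 by DESeq2, 13 with an unadjusted p under 0.05, or 7.56% against 5.68% of all gene tests), against 0.101% of all tests. Between p21mTert and p21mTertCD, 1 of 188 tests in 22 lineages was called (2 by DESeq2, 28 with an unadjusted p under 0.05, or 14.9% against 6.48% of all gene tests), against 0.0588%. The other 38, 28 and 32 pairs of member and lineage did not pass the filter on low counts, so these counts do not cover every member in every lineage. The shares of all gene tests are those of edgeR. None is given here for DESeq2, so its calls have no matching share beside them. These contrasts share groups and are not independent of each other.

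The call was Ctsc in non-classical monocytes. The p21mTertCD libraries held 450.3 and 283 CPM, the p21mTert libraries 218, 171, 170.2, 196 and 264 CPM, the p21Het libraries 182, 167 and 279 CPM and the WT library 183 CPM. Both p21mTertCD libraries were thus above all p21mTert libraries, and p21mTertCD_2 was only just above the highest p21Het library. Ctsc was lower in p21mTert than in p21mTertCD by a log2 difference of -0.93 ± 0.20 (SE; edgeR adjusted p = 0.0481, n = 5 and 2), in a fit that called 0.546% of 8421 genes as lower. Without p21mTertCD_1 the log2 difference was -0.48 (adjusted p = 0.984), and without p21mTert_1, p21mTert_2, p21mTert_3 or p21mTert_4 it was -0.93 to -0.89 (adjusted p = 0.0732 to 0.149), so the call was lost without any 1 of these 5 libraries. It was also lost with the 8 libraries with a replicate suffix alone (-0.93, adjusted p = 0.0594), with the set of libraries as a term (-0.90, 0.0597), without TMM scaling (-0.84, 0.142) and with a looser gate (-0.93, 0.113). A replicate block ended it too. DESeq2 called it (-0.94, adjusted p = 0.00201). In classical monocytes the p21mTertCD libraries held 792 and 654 CPM and the p21mTert libraries 367 to 585 CPM (log2 difference -0.66 ± 0.15, edgeR adjusted p = 0.133; called by DESeq2, adjusted p = 0.0192). Against p21Het, p21mTertCD had a log2 difference in Ctsc of 0.89 ± 0.22 in non-classical monocytes (edgeR adjusted p = 0.129; called by DESeq2, adjusted p = 0.0143). Without p21mTertCD_1 it was 0.45, and without p21mTertCD_2 it was 1.253. It passed in edgeR without p21Het_3 (1.13, adjusted p = 0.0380) and without the filter on low counts (0.88, 2.85e-05). The share of all gene tests called at these settings is not given here.

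**Figure D4:**
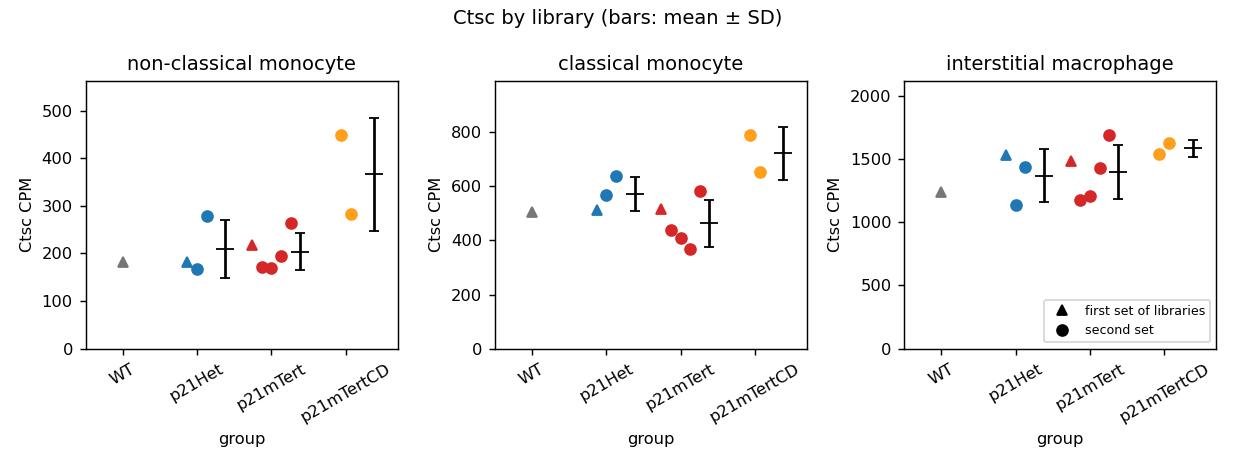
Ctsc CPM per library in 3 mononuclear phagocyte lineages by genotype group; circles are libraries with a replicate suffix, triangles those without, and bars mean ± SD. In non-classical monocytes p21mTertCD_1 stands highest at 450.3 CPM, and the other libraries lie between 167 and 283 CPM.

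The other pairs with the smallest p did not pass in edgeR as fitted. They were picked by p, so a lack of overlap between their groups adds no support. The share of all gene tests called in the alternative fits is not given here, so a pass in such a fit adds no support either. Neutrophil Ctsb was 139 ± 24.4 CPM in p21mTert (n = 5) and 206 ± 19.3 CPM in p21Het (n = 3), without overlap (log2 difference -0.71 ± 0.20, edgeR adjusted p = 0.298; 0.00843 without the filter on low counts), and 152 CPM in WT. Neutrophil Ctsl was 81.0 ± 12.0 and 113 ± 6.46 CPM in the same groups, also without overlap (-0.61 ± 0.18, edgeR adjusted p = 0.346). Ctsd in classical monocytes was 142 ± 21.8 CPM in p21mTert and 220 ± 46.8 CPM in p21Het (-0.56 ± 0.15, edgeR adjusted p = 0.289), and passed without p21Het_1 (-0.74, adjusted p = 0.0207), with the libraries with a replicate suffix alone (-0.74, adjusted p = 0.0310) and without the filter on low counts (-0.58, adjusted p = 0.00347). Ctss in alveolar type 2 cells was 5.25 ± 4.31 CPM in p21mTert and 14.8 ± 8.11 CPM in p21Het (-1.73 ± 0.47, edgeR adjusted p = 0.554; 0.0302 without the filter on low counts), both in the range of erythroid cells (16.6 ± 24.4 CPM, n = 9). The log2 difference was -0.32 with the looser gate and -1.01 without p21Het_2. In WT, neutrophil Ctsl stood at 98.8 CPM, classical monocyte Ctsd at 215 CPM and alveolar type 2 Ctss at 2.64 CPM. Ctsh in lipid-associated macrophages was 248 ± 16.6 CPM in 2 p21mTert libraries and 159 ± 22.1 CPM in 2 p21Het libraries (0.66 ± 0.21, edgeR adjusted p = 0.476). It passed with the set of libraries as a term (0.66, adjusted p = 0.0410), and was 0.38 with the looser gate.

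Ctss was 2131 ± 120 CPM in p21mTertCD (n = 2) and 1647 ± 171 CPM in p21Het (n = 3) in classical monocytes (log2 difference 0.45 ± 0.12, edgeR adjusted p = 0.150; 0.0260 without the filter on low counts), and 1877 ± 147 against 1497 ± 257 CPM in non-classical monocytes (0.41 ± 0.13, adjusted p = 0.415; 0.26 without p21mTertCD_1). In CD4 T cells, Ctsk (-4.06 ± 0.87, edgeR adjusted p = 0.203) and Ctsd (-1.31 ± 0.36, adjusted p = 0.336) had lower values in p21mTert than in p21mTertCD. CD4 T Ctsk stood at 15.9 and 47.9 CPM in p21mTertCD and at 0 to 4.03 CPM in p21mTert, against 8.47 ± 10.6 CPM in erythroid cells. In p21Het_1, p21Het_2 and p21Het_3 it stood at 1.12, 32.4 and 1.74 CPM, so p21Het_2 lay above p21mTertCD_2. The CD4 T Ctsk difference between p21mTert and p21mTertCD passed in edgeR without p21Het_2 (-4.05, adjusted p = 0.0191) and without the filter on low counts (-4.09, 5.36e-27). The share of all gene tests called at these settings is not given here, so these passes add no support. Without p21mTertCD_2 the difference was -4.59. Of 19 alternatives, 16 gave no call. Without p21mTertCD_1 the Ctsd difference was -0.41 (adjusted p = 0.99995), and without p21mTertCD_2 it was -1.85 (adjusted p = 0.00403). General capillary Ctsk was 82.6 CPM in p21mTertCD_1 and 4.73 CPM in p21mTertCD_2, against 3.23 to 8.41 CPM in p21mTert (-3.02 ± 0.90, edgeR adjusted p = 0.398). Without p21mTertCD_1, the library with the highest Ctsk over all kept cells, that difference was 0.13, and with likely doublets left out it was -1.66. The part that free RNA has in these values was not tested. With p21mTertCD_2 left out, so that p21mTertCD_1 stood alone for its group, more member tests were called between p21mTert and p21mTertCD. The share of all gene tests called with that setting is not given here, so this is not a result about the members.

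Summed over all kept cells, where the make-up of cells and the level per cell cannot be told apart, Ctsw had the smallest p of the members in each contrast, while Ctsk and Ctsd differed more in size between some groups, with wider spreads. Mean Ctsk was 163 CPM in p21Het, 75.4 in p21mTert and 251 in p21mTertCD (SD 133, 40.0 and 279), and the WT library held 29.7 CPM. Ctsw stood at 24.8, 16.1 and 26.9 CPM in the p21Het libraries, at 41.9, 42.9, 27.7, 34.2 and 34.5 CPM in p21mTert, at 57.7 and 56.9 CPM in p21mTertCD, and at 43.5 CPM in WT. The 3 replicated groups did not overlap, in a gene named here for its smallest p. The log2 difference was 1.38 ± 0.22 between p21mTertCD and p21Het (edgeR adjusted p = 0.0601; called by DESeq2, adjusted p = 3.00e-05), 0.64 ± 0.18 between p21mTert and p21Het (0.672) and -0.74 ± 0.20 between p21mTert and p21mTertCD (0.214; called by DESeq2, adjusted p = 0.0345). CD8 T cells made up 14.8% ± 0.187 of kept cells in p21mTertCD, 7.81% ± 1.94 in p21mTert, 4.81% ± 0.439 in p21Het and 7.23% in WT. Natural killer cells, the lineage with the highest Ctsw level, made up 0.599% ± 0.113, 1.68% ± 0.425, 1.29% ± 0.676 and 1.501% in the same order. With equal weight for each lineage, the log2 differences were 0.03, 0.12 and 0.09 in the order of the contrasts above, so that the last of them changed sign. Within lineages, CD8 T cells held 233 ± 14.6 CPM in p21mTertCD and 177 ± 12.1 CPM in p21Het, without overlap (log2 difference 0.37 ± 0.13, edgeR adjusted p = 0.238). CD8 T cells of the WT library held 277 CPM. In CD4 T cells p21mTertCD_1 held 161 CPM and p21mTertCD_2 36.4 CPM, against 33.0 to 45.2 CPM in p21Het (1.33 ± 0.46, edgeR adjusted p = 0.336; -0.18 without p21mTertCD_1).

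**Figure D5:**
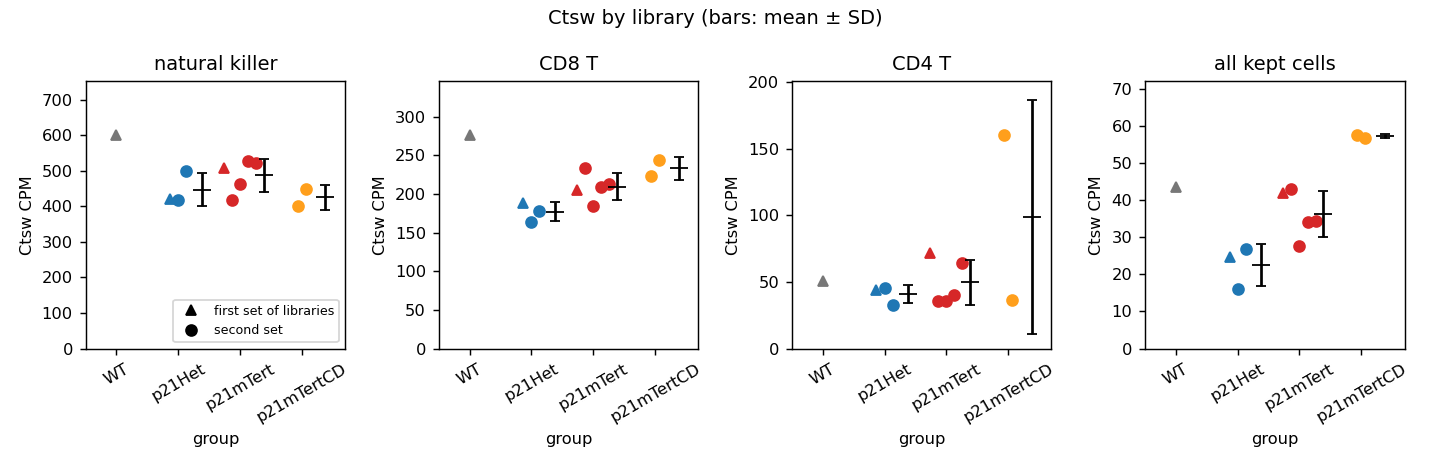
Ctsw CPM per library in 3 lymphocyte lineages and in all kept cells, by genotype group; circles are libraries with a replicate suffix, triangles those without, and bars mean ± SD. Over all kept cells the p21mTertCD libraries stand at 57.7 and 56.9 CPM and the p21Het libraries at 16.1 to 26.9 CPM, while the groups overlap in natural killer cells.

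Among the 10 members over all kept cells, edgeR called 0 between p21mTert and p21Het (4 with an unadjusted p under 0.05, 0 by DESeq2), 0 between p21mTertCD and p21Het (2, and 1 by DESeq2) and 0 between p21mTert and p21mTertCD (8, and 1 by DESeq2), where 0.0114%, 0.12% and 0.00571% of 17503 genes were called. At an unadjusted p under 0.05 the shares of all genes were 7.24%, 6.26% and 16.1%. All these shares are those of edgeR, and none is given here for DESeq2. In the last contrast 9 of 10 members had a lower value in p21mTert, with a median log2 difference of -0.72 against 0.02 over all genes. The p21mTertCD_1 library had the highest Ctsb (824 CPM), Ctsc (381 CPM), Ctsd (2022 CPM), Ctsk (448 CPM), Ctsl (229 CPM), Ctss (988 CPM) and Ctsz (466 CPM) of all 11, and p21mTertCD_2 lay within the range of the p21mTert libraries for each of these 7 genes. Within joined alveolar and lipid-associated macrophages 0 of 9 members tested were called by edgeR or by DESeq2 in each contrast, and 0 had an unadjusted p under 0.05; 0.0195%, 0% and 0% of 10278 genes were called. There Ctsk ranged from 502 to 1877 CPM in p21Het, 292 to 1138 CPM in p21mTert and 516 to 2040 CPM in p21mTertCD, so that each of these groups spanned more than the difference between their means. The WT library held 368 CPM there.

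Pathway genes outside the members gave 4 calls. Within lineages these were 1 of 1073 tests between p21mTert and p21Het, 1 of 860 between p21mTertCD and p21Het and 1 of 931 between p21mTert and p21mTertCD, or 0.0932%, 0.116% and 0.107% of them, where 0.0378%, 0.101% and 0.0588% of all gene tests were called. Over all kept cells, 1 of 67 (1.49%) was called between p21mTertCD and p21Het, where 0.12% of all genes were called. Cd74, the invariant chain that Ctss processes, was higher in p21mTert than in p21Het in lipid-associated macrophages, with 2 libraries a group (log2 difference 1.51 ± 0.28, edgeR adjusted p = 0.0375) and lower in p21mTert than in p21mTertCD in lymphatic endothelial cells (-2.03 ± 0.37, edgeR adjusted p = 0.0233). Cst7 was higher in p21mTertCD than in p21Het in CD8 T cells (0.88 ± 0.12, edgeR adjusted p = 0.0278) and over all kept cells (1.85 ± 0.18, edgeR adjusted p = 0.0105), beside the larger share of CD8 T cells in that group.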

How the data were processed

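Per the labels' protocols, lungs were dissociated with dispase and collagenase, red blood cells were lysed, and 10x Genomics 3′ libraries were made. The authors deposited raw UMI counts per gene and barcode made with Cell Ranger on mm10, version 3.1.0 per the file headers and 2.3 per the series' design text. Kept cells had 1000 to 30000 UMIs and at most 14% mitochondrial UMIs; CPM were taken over all UMIs, mitochondrial ones included. Lineages were read from 6 markers each, with T cells split by Cd4, Cd8a, Cd8b1 and Trdc; 1831 kept cells had fewer than 3 markers and 10001 too small a lead. Doublets were treated in an alternative without Scrublet's top 0.8% per 1000 barcodes (4.55% to 8.42% of kept cells). Sums of at least 20 cells per library were tested with edgeR 4.0.16 (filterByExpr, TMM, glmQLFit, glmQLFTest); DESeq2 1.42.0 was an alternative, beside other gates, filters, scalings, at least 50 cells, the set of libraries, a replicate block and leaving out each library. On simulated counts for p21mTert against p21Het, 71.3% of 2-fold and 97.9% of 4-fold changes were recovered in general capillary cells (9195 genes), 49.5% and 92.7% in neutrophils (7057 genes), and 39.4% and 84.7% in all kept cells (17503 genes). Each simulation held 200 changed genes and gave 12, 7 and 7 false calls in that order. The data gave only 2 calls over all kept cells in this contrast. Recovery with fewer changed genes, or in contrasts with p21mTertCD, was not simulated and may be lower. The members and lists were chosen with earlier results of these data known. The text names every member, for each contrast the called pairs of member and lineage or the 5 of smallest p, the 3 genes most like each member, and called pathway genes. Gene IDs matched GENCODE M21 for 31011 of 31053. The deviations of same-numbered libraries had correlations of -0.51 to 0.23 over 8824 genes, without different-numbered pairs for reference. These values cannot show whether numbers pair samples, and the main fits used no pairing. Python 3.11.15 and R 4.3.3 were used. Protein sequences were not used here.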

Additional observations from a re-analysis of the deposited data

Results flagged for a closer look

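Among 24 sets of p21mTert values searched for a library far from the others, 1 stood out, where chance gives about 1 in 20. Ctss in alveolar type 2 cells stood at 12.7 CPM in p21mTert_1, while the other 4 p21mTert libraries lay between 1.46 and 4.32 CPM. p21mTert_1 is also the p21mTert library without a replicate suffix.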

How the results depend on the processing

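The counts of member tests called within lineages changed with several settings. Shares of all gene tests called at these settings are not given here, so a changed count is not a result about the members. Between p21mTert and p21Het, 0 became 12 without the filter on low counts, 1 with the second set of libraries (those with a replicate suffix) and 1 with the set as a term, and leaving out each library gave 0 to 1. Between p21mTertCD and p21Het, 0 became 1 with DESeq2 and 6 without the filter, and leaving out each library gave 0 to 5. Between p21mTert and p21mTertCD, 1 became 2 with DESeq2 and 11 without the filter, and 0 with the looser gate, with the second set, with the set as a term, without TMM and with the replicate block; leaving out each library gave 0 to 10. Over all kept cells, 0 became 1 with DESeq2 and 1 without the filter between p21mTertCD and p21Het, with 0 to 1 when each library was left out, and 1 with DESeq2 between p21mTert and p21mTertCD. Of 32 neighbouring pairs apart, 0 were apart with the second set alone, where 8 libraries cannot go below an unadjusted p of 0.00781. Other causes were not tested. Ctsw in CD4 T cells between p21mTertCD and p21Het ranged from -0.18 (without p21mTertCD_1) to 2.00, and Ctsk in general capillary cells between p21mTert and p21mTertCD from -4.17 to 0.13 (without p21mTertCD_1). Ctsw over all kept cells between p21mTert and p21mTertCD was 0.0858 with equal weight for each lineage. All 160 alternative levels of a member in its highest lineage lay within 1 SD of the main value, while another lineage came first in 10 of them. Where 1 library stands alone for p21mTertCD, it is assumed to vary like the other groups. Joining the macrophage lists, chosen after seeing the data, left the 3 counts at 0, 0 and 1. The replicate block ended the Ctsc call in non-classical monocytes (-1.05, edgeR adjusted p = 0.138). Whether the numbers pair the libraries is not known. Same-numbered libraries had correlations of -0.51 to 0.23, which cannot settle it without different-numbered pairs for reference. Levels of the low lineages overlap those of erythroid cells; the part of depth in this was not tested.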
